A study of Mus musculus with 4 samples.

Results

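Glycolysis and glucose uptake were represented by 10 genes: the transporter Slc2a1, the hexokinases Hk1 and Hk2, the phosphofructokinases Pfkl and Pfkp, and Aldoa, Pgk1, Pgam1, Eno1 and Ldha. All probe sets that the platform annotation pairs with 1 of these symbols and no other were taken, which gave 22 of 45101 probe sets, for 9 of the 10 genes among 18193 in all. Eno1 had no such probe set and was not analysed here, and 1 probe set shared by Hk1 and 5 other symbols was left out. RNA came from AEC2, the type II cells of the alveolar epithelium that make surfactant, which were flow sorted from mouse lungs; it was hybridised to Affymetrix arrays. There were 4 groups with 1 array each: TLR4-/- cells 4 days after bleomycin, wild-type cells 4 days after bleomycin, TLR4-/- cells from untreated lungs and wild-type cells from untreated lungs. Bleomycin is a drug that injures the lung epithelium, and TLR4 is a receptor of innate immunity. Each array carried the cells of 4 to 5 mice in a pool, so the spread between mice was not measured. The sources used here give no Tlr4 allele and no strain, age or sex of the mice. In bulk RNA such as this, fewer cells of a type and less RNA per cell cannot be told apart.

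Glycolysis turns glucose into pyruvate in the cytosol. Facilitative transporters bring glucose in, hexokinases trap it as glucose phosphate, phosphofructokinase commits it to breakdown, and the lower enzymes harvest ATP and NADH before lactate dehydrogenase converts pyruvate to lactate. Most enzymes of the pathway are known targets of the hypoxia-inducible factors, and AEC2 are known to draw on glucose and lactate while they make surfactant lipids.

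The defining genes of AEC2 were bright on every array. Sftpc, the surfactant protein C gene, read 14.05 and 14.06 (log2 signal) at day 4 in TLR4-/- and wild type, against 14.02 and 14.03 in the untreated cells of these genotypes. For bleomycin, limma called 0 of 8 AEC2 markers past the filter. Bright signals were not confined to AEC2 genes. The club gene Scgb1a1 lay between 13.51 and 13.93 on the 4 arrays, and the type I cell gene Ager between 12.82 and 13.04. Markers of other cells moved. Over all 9096 genes past the filter, limma called 7.18% higher and 2.53% lower after bleomycin, and the counts of each list below stand beside these shares. The leukocyte and macrophage list rose in 11 of 12 genes, with a summed linear signal of 9781 in TLR4-/- and 7528 in wild type at day 4, against 2984 and 2970 in untreated TLR4-/- and wild type. The mesothelial list rose in 3 of 3 genes past the filter and the type I cell list in 3 of 5. For the neutrophil list it was 1 of 3 and for the fibroblast list 1 of 2, while 2 of 3 ciliated-cell genes fell. Of 5 lymphocyte genes on the array only 1, Cd2, passed the filter, and it rose. The summed signal of the 5 was 431 in TLR4-/- and 369 in wild type at day 4, against 449 and 462 in untreated TLR4-/- and wild type. The club list had 0 calls in 5 genes, but its summed signal was 16051 in untreated TLR4-/- against 28556 in untreated wild type. No endothelial or erythroid gene passed the filter (0 of 5 and 0 of 2). Of the sex-linked genes, Eif2s3y on the Y chromosome read 8.87 and 8.85 at day 4 in TLR4-/- and wild type, against 6.86 and 6.82 in untreated cells, and Xist 10.04 and 10.79 against 11.30 and 11.41. The part of these shifts in the results below was not tested. Of the 4 Tlr4 probe sets, 1 was lower in TLR4-/- in both treatments, by -2.68 at day 4 and -1.63 untreated, 2 were higher and 1 was dim. Where each lies relative to the deleted part is not stated in the labels, so which of them checks the genotype is unknown.

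The promoters of Pgk1 and Pgam1, which carried the clearest change, are printed first, with those of Ldha and Pfkl, which did not pass the test, beside them. Each line holds the 250 bases before the annotated start, 5′ to 3′ on the gene's strand, from RefSeq on GRCm38.p6. Capitals mark ACGTG or GCGTG on either strand, the cores to which hypoxia-inducible factors are known to bind. The windows lie at chrX:106186850-106187099 (plus strand) for Pgk1, chr19:41911621-41911870 (plus) for Pgam1, chr7:46845554-46845803 (plus) for the first of the Ldha starts, and chr10:78009808-78010057 (minus) for Pfkl.
Pgk1: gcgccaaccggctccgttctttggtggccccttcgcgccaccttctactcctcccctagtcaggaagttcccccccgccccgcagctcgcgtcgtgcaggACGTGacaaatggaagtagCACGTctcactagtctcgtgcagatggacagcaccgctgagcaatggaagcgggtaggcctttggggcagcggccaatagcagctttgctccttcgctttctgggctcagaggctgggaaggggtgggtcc
Pgam1: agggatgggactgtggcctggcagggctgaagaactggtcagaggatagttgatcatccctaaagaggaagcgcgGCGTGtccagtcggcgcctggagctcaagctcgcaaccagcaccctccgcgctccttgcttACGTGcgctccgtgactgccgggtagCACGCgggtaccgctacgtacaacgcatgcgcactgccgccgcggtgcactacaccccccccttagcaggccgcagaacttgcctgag
Ldha: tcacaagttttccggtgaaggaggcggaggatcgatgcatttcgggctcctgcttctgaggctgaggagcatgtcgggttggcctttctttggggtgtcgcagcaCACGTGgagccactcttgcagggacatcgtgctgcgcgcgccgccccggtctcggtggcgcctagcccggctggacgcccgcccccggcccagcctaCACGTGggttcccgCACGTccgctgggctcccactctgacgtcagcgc
Pfkl: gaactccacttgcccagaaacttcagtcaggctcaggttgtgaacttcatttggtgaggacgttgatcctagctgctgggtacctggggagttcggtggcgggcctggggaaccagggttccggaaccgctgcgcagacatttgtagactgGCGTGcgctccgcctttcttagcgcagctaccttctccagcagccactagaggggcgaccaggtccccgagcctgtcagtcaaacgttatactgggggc

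Pgk1 had 2 such cores, beginning 150 and 131 bases before the start, and Pgam1 had 3, at 175, 114 and 88 bases. Ldha had 5 matches, of which the pairs at 145 and 144 and at 48 and 47 bases overlap because the palindrome CACGTG holds the core on both strands, and the last stood at 34 bases. Pfkl had 1, at 99 bases. The 10 genes, Eno1 included, had 16 annotated windows, some of which overlap. A core of either kind stood in 14 of these 16 windows, against 38.6% of all 32851 windows of the same length, and 9 held 2 or more, against 16.7%. ACGTG was found in 7 of the 16 (16.6% of all windows), GCGTG in 9 (28.2%), CACGTG in 1 (6.02%) and GGGCGG, the box bound by SP factors, in 9 (32.7%). The windows of these genes were also richer in G and C, with a median of 63.4% against 52.4%. These matches describe the letters in the windows.

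After bleomycin, the lower-glycolysis genes Pgk1 and Pgam1 rose, while the transporter, the hexokinases, the phosphofructokinases, Aldoa and Ldha did not pass the test. Pgk1 was 1.68-fold and Pgam1 1.58-fold higher across the genotypes. Of the 9 genes measured, all 9 passed the filter on low signal (mean log2 signal over 7.05), and limma called 2 higher and 0 lower at an adjusted p under 0.05. The shares over all genes were 7.18% and 2.53%. The median difference of the 9 was 0.14 in TLR4-/-, against 0.01 over all genes, and 0.38 in wild type, against 0.07 over all genes. The differences of 7 were above 0 in both genotypes and those of 2, Hk2 and Pfkl, below 0 in both, against 38.9% and 27.6% of all genes.

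**Figure D1:**
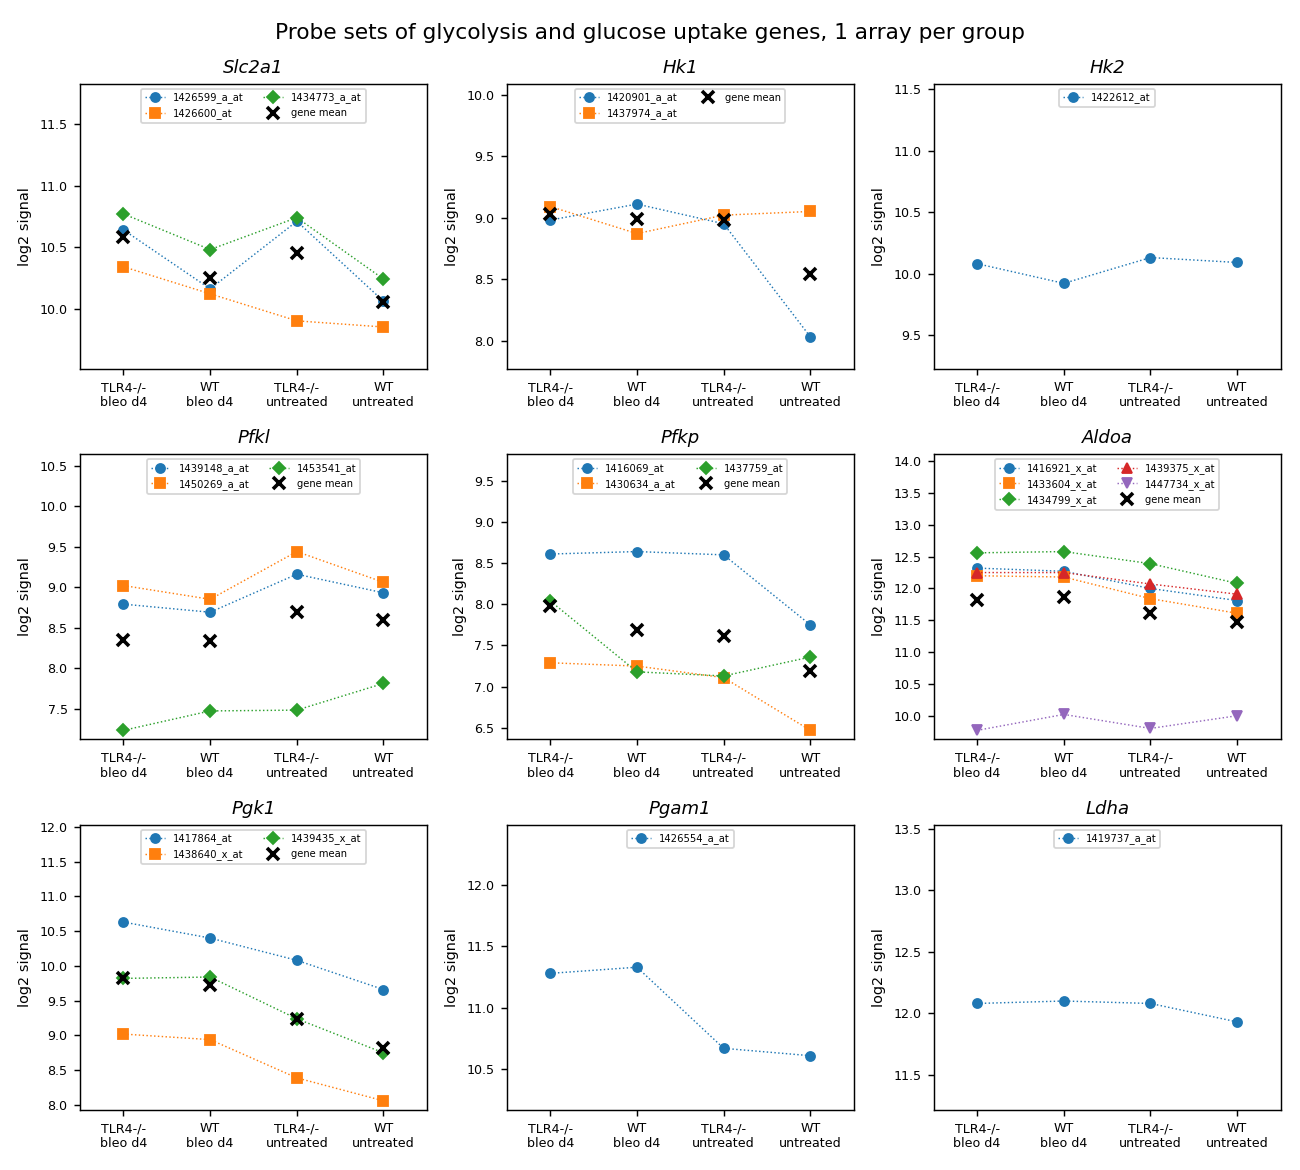
Log2 signal (vertical axis) of each probe set on the 4 arrays, with TLR4-/- day 4, wild-type day 4, TLR4-/- untreated and wild-type untreated from left to right. Coloured symbols are probe sets, crosses the mean of a gene's probe sets, and dotted lines only join a probe set's points; the vertical ranges differ between genes. The 3 probe sets of Pgk1 and the 1 of Pgam1 lie higher on both day 4 arrays than on both untreated arrays.

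Pgk1 encodes phosphoglycerate kinase, which makes the first ATP of the pathway. Its probe sets averaged 9.82 in TLR4-/- and 9.73 in wild type at day 4, against 9.23 in untreated TLR4-/- and 8.82 in untreated wild type. Both day 4 arrays thus lay above both untreated arrays, and the lowest was untreated wild type. How many of all genes separate in this way was not counted. Here and below, the order of the arrays is only a description. The difference after bleomycin was 0.59 (1.5-fold) in TLR4-/- and 0.90 (1.87-fold) in wild type. The limma average over both genotypes was 0.75 ± 0.16 (SE, 2 arrays against 2, higher in 2 of 2 genotypes, adjusted p = 0.0119). All 3 probe sets went the same way, by 0.55, 0.63 and 0.58 in TLR4-/- and by 0.74, 0.88 and 1.09 in wild type. Pgk1 lies on the X chromosome (chrX:106187100-106203699, GRCm38.p6), and the sex-linked genes given above differed between the same arrays, as did the leukocyte and macrophage markers. Their part in the Pgk1 difference was not tested. Of its probe sets, 2 have names ending in _x_at, the suffix Affymetrix gives to probe sets with probes that may also match other genes, and Pgk1 has annotated pseudogenes. Without these 2, in a fit added after seeing the data, the limma average was 0.65 (adjusted p = 0.0157). It rests on the 1 probe set left, which is also the brightest of the gene. The same 0.65 was not called when each gene took its brightest probe set (limma adjusted p = 0.0830) or in the fit per probe set (0.0710).

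Pgam1, the phosphoglycerate mutase that moves the phosphate within phosphoglycerate, was read by 1 probe set at 11.28 in TLR4-/- and 11.33 in wild type at day 4, against 10.67 in untreated TLR4-/- and 10.61 in untreated wild type. The day 4 pair and the untreated pair did not overlap, and the genotypes lay close together within each. The difference was 0.60 (1.52-fold) in TLR4-/- and 0.72 (1.65-fold) in wild type, with a limma average of 0.66 ± 0.16 (SE, higher in 2 of 2 genotypes, adjusted p = 0.0190). The limma calls of Pgk1 and Pgam1 were lost with the probe set of highest mean (adjusted p = 0.0830 and 0.0769), without the filter (0.0743 and 0.0757), and on leaving out any array but untreated TLR4-/- (0.0530 to 0.583). Fitted per probe set, where limma called 3.81% of 17472 probe sets higher and 1.34% lower, 2 of the 3 Pgk1 probe sets were called (limma adjusted p = 0.0386 and 0.0436). The third Pgk1 probe set (limma adjusted p = 0.0710) and that of Pgam1 (0.0642) were not.

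Aldoa encodes the aldolase that splits fructose bisphosphate, upstream of these enzymes. Its 5 probe sets averaged 11.82 in TLR4-/- and 11.86 in wild type at day 4, against 11.62 in untreated TLR4-/- and 11.48 in untreated wild type. The difference of 0.20 in TLR4-/- and 0.38 in wild type did not pass (limma average 0.29 ± 0.16, adjusted p = 0.294). Of the probe sets, 4 were above 0 in both genotypes, by 0.16 to 0.37 in TLR4-/- and 0.34 to 0.57 in wild type. The fifth and dimmest differed by -0.03 and 0.02. All 5 names end in _x_at.

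Ldha, which makes lactate from pyruvate, did not pass the test. Its 1 probe set read 12.08 in TLR4-/- and 12.10 in wild type at day 4, against 12.08 in untreated TLR4-/- and 11.93 in untreated wild type. The range over the 4 arrays was less than the SD of 0.229 that limma's prior gave for a difference between 2 arrays (limma average 0.09 ± 0.16, adjusted p = 0.789). That SD rests on differences between the genotypes' responses over all genes, not on replicate arrays.

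The phosphofructokinases, which catalyse the committed step, had differences of opposite sign, neither past the test. Pfkl, the liver-type enzyme, averaged 8.35 in TLR4-/- and 8.33 in wild type at day 4, against 8.69 in untreated TLR4-/- and 8.60 in untreated wild type. The day 4 values lay below both untreated values, by -0.35 in TLR4-/- and -0.27 in wild type, and all 3 probe sets had a negative difference in both genotypes, between -0.42 and -0.22. The limma average of -0.31 ± 0.16 did not pass (adjusted p = 0.254). Pfkp, the platelet-type enzyme, averaged 7.98 in TLR4-/- and 7.69 in wild type at day 4, against 7.61 in untreated TLR4-/- and 7.19 in untreated wild type. Its limma average of 0.43 ± 0.16 had an unadjusted p of 0.0162 and an adjusted p of 0.105. Fits that leave out 1 array hold treatment alone, so they also carry the genotype difference. In these fits the Pfkp average moved widely. It was 0.29 without TLR4-/- day 4 (limma adjusted p = 0.886), 0.58 without wild-type day 4 (0.383) and 0.22 without untreated wild type (0.558). Without untreated TLR4-/- it was 0.64 and was called (limma adjusted p = 0.0484), with the low untreated wild-type array as the whole untreated group.

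The probe sets of Pfkp disagreed. The brightest read 8.61 in TLR4-/- and 8.64 in wild type at day 4, against 8.60 in untreated TLR4-/- and 7.75 in untreated wild type. A dimmer one, below the floor used for single probe sets, read 7.29 and 7.25 in TLR4-/- and wild type at day 4, against 7.11 and 6.47 in untreated TLR4-/- and wild type. In both, untreated wild type was the low array and the other 3 lay close together. The last read 8.04 in TLR4-/- and 7.18 in wild type at day 4, against 7.13 in untreated TLR4-/- and 7.36 in untreated wild type, so that TLR4-/- day 4 alone stood high. The average for Pfkp thus combines unlike profiles.

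Hk1 and Hk2 encode the hexokinases that bind mitochondria. The Hk1 probe sets averaged 9.03 in TLR4-/- and 8.99 in wild type at day 4, against 8.98 in untreated TLR4-/- and 8.54 in untreated wild type (limma average 0.25 ± 0.17, adjusted p = 0.400). One of the pair read 8.98 in TLR4-/- and 9.11 in wild type at day 4, against 8.95 in untreated TLR4-/- and 8.03 in untreated wild type. Its difference after bleomycin was 0.03 in TLR4-/- and 1.08 (2.12-fold) in wild type. The other read 9.09 in TLR4-/- and 8.87 in wild type at day 4, against 9.02 in untreated TLR4-/- and 9.05 in untreated wild type, so the low value of untreated wild type was seen in only 1 of the 2 Hk1 probe sets. Hk2, the insulin-regulated form, read 10.08 in TLR4-/- and 9.92 in wild type at day 4, against 10.13 in untreated TLR4-/- and 10.09 in untreated wild type. The day 4 values were the lower ones in each genotype, by -0.05 and -0.17 (limma average -0.11 ± 0.16, adjusted p = 0.731). Both differences are smaller in size than the SD of 0.229 from limma's prior.

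Slc2a1, the basal glucose transporter GLUT1, averaged 10.58 in TLR4-/- and 10.25 in wild type at day 4, against 10.45 in untreated TLR4-/- and 10.05 in untreated wild type. On this average both TLR4-/- arrays lay above both wild-type arrays. The probe sets disagreed, since 2 of the 3 had this order, while the third read 10.34 in TLR4-/- and 10.12 in wild type at day 4, against 9.90 in untreated TLR4-/- and 9.85 in untreated wild type, with the day 4 arrays higher. The difference after bleomycin was 0.14 in TLR4-/- and 0.21 in wild type (limma average 0.17 ± 0.16, adjusted p = 0.567).

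**Figure D2:**
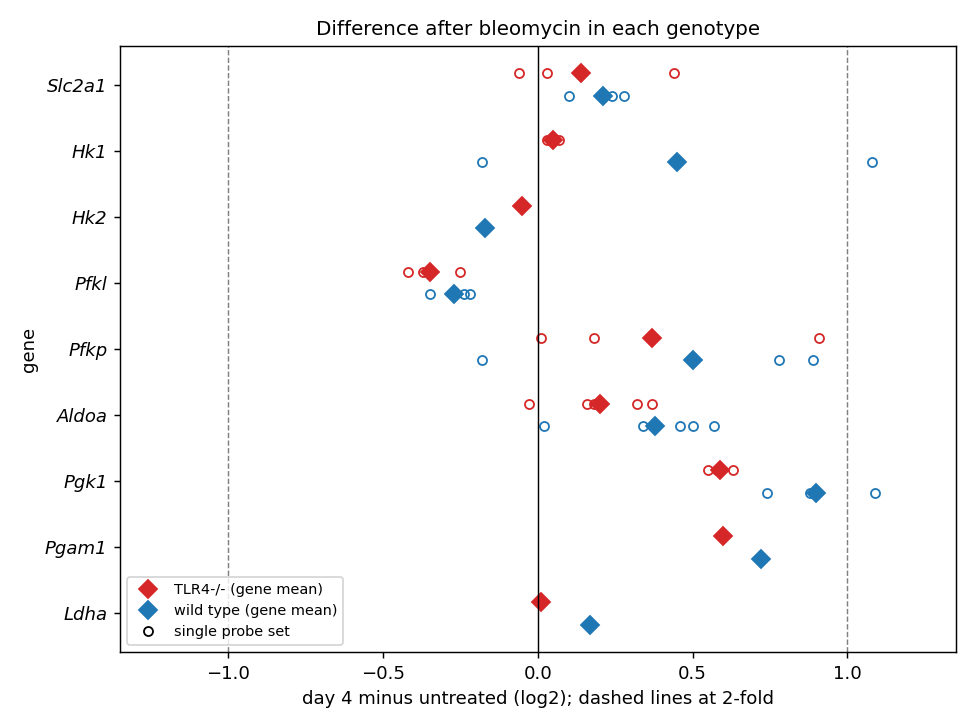
Difference between day 4 after bleomycin and untreated (log2, horizontal axis) for each gene, with TLR4-/- in red above wild type in blue. Diamonds are gene means, open circles single probe sets, and dashed lines mark 2-fold. The gene means of Pgk1 and Pgam1 lie between 0.59 and 0.90 in both genotypes, and Pfkl lies below 0 in both. Single Pgk1 probe sets lie between 0.55 in TLR4-/- and 1.09 in wild type. The probe sets of Hk1 and Pfkp in wild type spread from -0.18 to 1.08 and from -0.18 to 0.89.

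No gene of the set reached 2-fold after bleomycin in either genotype (0 of 9). Among the 9096 genes, 2.45% reached it upward and 0.891% downward in TLR4-/-, and 2.55% upward and 0.308% downward in wild type. Among single probe sets, 2 reached it in wild type, 1 of Hk1 and 1 of Pgk1 (1.09, 2.12-fold), against 2.54% of all probe sets. Differences beyond 0.46, which is 2 SD by limma's prior, were seen in TLR4-/- for Pgk1 and Pgam1, against 21% of all genes. In wild type they were seen for Pgk1, Pgam1 and Pfkp, against 18.5% of all genes.

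The TLR4-/- response minus the wild-type response, with signs kept, was below 0 for 8 of the 9 genes, with a median of -0.13. A value below 0 is not always a weaker response, since Pfkl fell by -0.35 in TLR4-/- and by -0.27 in wild type. Of all genes, 59.2% had a value below 0, and their median over all genes was -0.07. The range ran from -0.40 for Hk1, followed by Pgk1 at -0.32, to 0.12 for Hk2. No gene of the set reached 2-fold here either (0 of 9), against 0.671% of all genes on the positive side and 0.847% on the negative. With 1 array per group this difference has no replicate check and was not tested. Both it and the wild-type response use the untreated wild-type array, on which 7 of the 9 genes had their lowest value, as did 40.1% of all genes. That array also had the lowest upper quartile over all probe sets (8.47, against 8.54 to 8.58 on the others). Its median was the highest (6.98, against 6.93 to 6.96 on the others). With arrays centred on their medians, the median difference of the responses was -0.17. After quantile normalization the median difference was 0.11 in TLR4-/- and 0.31 in wild type, and that of the responses again -0.13. In that setting the difference of responses was above 0 for 2 of the 9 genes. It was 0.00 for Slc2a1, -0.02 for Pfkl and -0.03 for Pgam1.

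The other genes of glycolysis had few calls. The counts that follow stand beside 7.18% of all genes called higher and 2.53% called lower. Whether the calls counted here hold under other normalizations, filters or choices of probe set was not examined. Several have a limma adjusted p close to the threshold of 0.05. In the rest of the pathway, 1 of 13 genes past the filter rose and 0 fell, a share near that over all genes, and the median limma average was -0.06, against 0.04 over all genes. The riser was Pkm, the pyruvate kinase that yields pyruvate and ATP, at 11.47 in TLR4-/- and 11.12 in wild type at day 4, against 10.96 in untreated TLR4-/- and 10.55 in untreated wild type (0.54 ± 0.16, limma adjusted p = 0.0451). Tpi1, the triose phosphate isomerase, had a limma average of 0.31 and did not pass (adjusted p = 0.273). The brain-type enolase Eno2 was below the filter at 6.79 and 6.27 at day 4 in TLR4-/- and wild type, against 5.58 and 5.40 in untreated TLR4-/- and wild type, a difference of 1.21 and 0.87 at signals where the size is uncertain. Another 6 genes on the array were also below the filter.

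Among genes around the fate of pyruvate and lactate, 1 of 12 rose, a share near the 7.18% of all genes, and 2 fell, beside 2.53% of all genes. Pdk4, a kinase that shuts off pyruvate dehydrogenase, read 9.33 in TLR4-/- and 9.17 in wild type at day 4, against 8.38 in untreated TLR4-/- and 8.65 in untreated wild type (0.73 ± 0.17, limma adjusted p = 0.0159). Its relative Pdk2 fell, with 9.54 and 9.76 at day 4 in TLR4-/- and wild type, against 10.08 and 10.33 in untreated TLR4-/- and wild type (-0.56 ± 0.16, limma adjusted p = 0.0412). Slc16a7, the monocarboxylate transporter MCT2, fell to 9.06 in TLR4-/- and 9.26 in wild type at day 4, against 9.81 in untreated TLR4-/- and 10.04 in untreated wild type (-0.76 ± 0.16, limma adjusted p = 0.00807). The transporter Slc16a1 and its chaperone Bsg had limma averages of -0.37 and -0.38 and did not pass.

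Among regulators of fructose bisphosphate and gluconeogenesis, 1 of 7 rose and 0 fell, beside 7.18% and 2.53% of all genes. This was Tigar, a p53-induced phosphatase that lowers the activator of phosphofructokinase, at 7.87 in TLR4-/- and 7.84 in wild type at day 4, against 7.32 in untreated TLR4-/- and 7.08 in untreated wild type (0.65 ± 0.16, limma adjusted p = 0.0215). Fbp1, a gluconeogenic phosphatase, was dim and below the filter, at 5.92 in TLR4-/- and 4.80 in wild type at day 4, against 4.29 in untreated TLR4-/- and 4.56 in untreated wild type. Pck2, the mitochondrial carboxykinase, read 7.60 in TLR4-/- and 7.96 in wild type at day 4, against 8.28 in untreated TLR4-/- and 7.62 in untreated wild type, so its response differed by -1.03 between the genotypes, untested. In the pentose phosphate branch 0 of 6 were called, with a median limma average of 0.26. The lactonase Pgls came closest (0.52 ± 0.16, limma adjusted p = 0.0557).

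Hypoxia targets outside glycolysis had 0 of 13 genes that rose and 1 that fell, beside 7.18% and 2.53% of all genes, with a median limma average of -0.01. The faller was P4ha1, a collagen prolyl hydroxylase, at 9.68 in TLR4-/- and 9.96 in wild type at day 4, against 10.58 in untreated TLR4-/- and 10.29 in untreated wild type (-0.62 ± 0.18, limma adjusted p = 0.0446). Vegfa, the endothelial growth factor, had a limma average of 0.32 and Bnip3, a mitophagy receptor, one of -0.27, neither past the test. That of Hif1a, a subunit of the factor itself, was 0.22 and did not pass either.

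**Figure D3:**
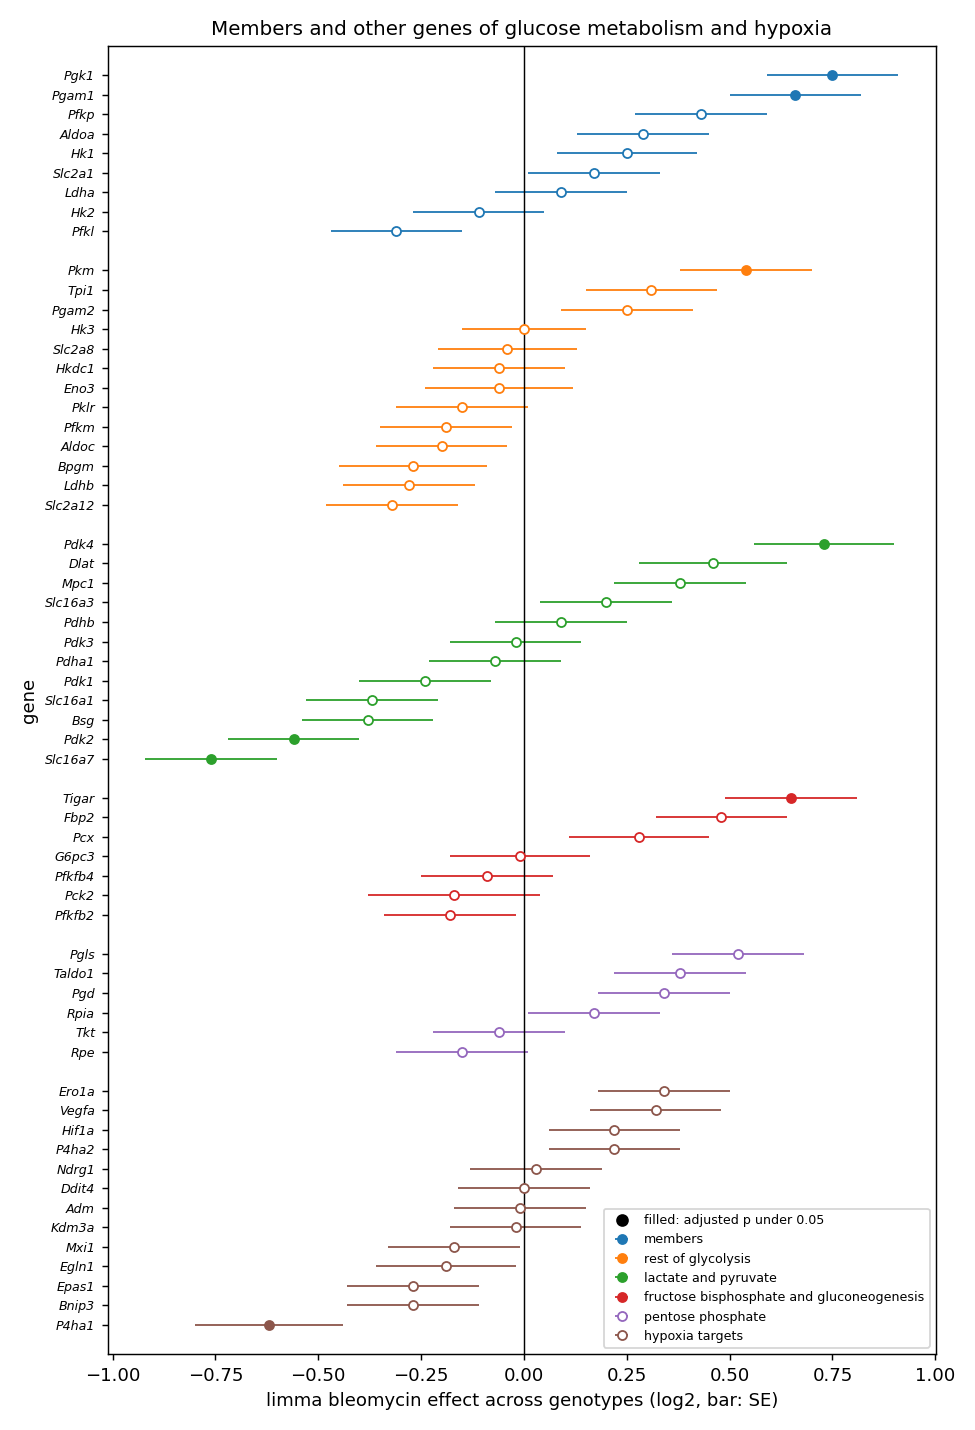
Limma average of the bleomycin difference over both genotypes (log2, horizontal axis) with its standard error, for the 9 glycolysis and glucose uptake genes (blue, listed as members) and for other genes of glucose metabolism and hypoxia past the filter, ordered by size within each list. Filled points have an adjusted p under 0.05: Pgk1, Pgam1, Pkm, Pdk4 and Tigar above 0, and Pdk2, Slc16a7 and P4ha1 below it.

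Pgk1 had the largest limma average of the set. The 5 genes with the most similar profile over the 4 arrays, by the root mean square distance between values centred on each gene's mean, were Arf2, Coq10b, 2700046G09Rik, Abcg1 and Ctsd, at distances of 0.017 to 0.033 (log2). Pgam1 ranked 250 among 9095 genes with a distance of 0.14, Pfkp 431 with 0.171, and Pfkl 7746 with 0.54. With 4 arrays, close profiles are frequent, and this ranking is a description.

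Between the genotypes no gene of the set was called, and limma called 0% of all genes higher and 0% lower for genotype (822 of 9096 had an unadjusted p under 0.05). Slc2a1 had the largest average, 0.37 ± 0.16 higher in TLR4-/- (higher in 2 of 2 treatments, unadjusted p = 0.0355, limma adjusted p = 0.507). Pfkp followed at 0.36 ± 0.16 (unadjusted p = 0.0406, limma adjusted p = 0.520). The Pfkp average was 0.17 without TLR4-/- day 4, 0.61 without wild-type day 4, 0.54 without untreated TLR4-/- and 0.11 without untreated wild type. These fits hold genotype alone, so with 1 array left out they also carry the treatment difference. Within a treatment, the Pfkp difference was 0.29 at day 4 and 0.42 in untreated cells.

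At day 4 the TLR4-/- minus wild-type differences ran from -0.05 for Pgam1 to 0.33 for Slc2a1, with a median of 0.04 against 0.02 over all genes. In untreated cells all 9 differences were above 0, from 0.05 for Hk2 to 0.44 for Hk1, with a median of 0.15 against 0.08 over all genes, 62.2% of which were above 0. After quantile normalization 7 of the 9 were above 0, and Pgam1 differed by -0.01 in place of 0.07. No gene of the set reached 2-fold in either treatment, against 0.044% of all genes higher and 0.055% lower at day 4, and 0.781% higher and 0.341% lower in untreated cells. None differed by more than 2 SD (0.46), which 5.62% of all genes did at day 4 and 13.9% in untreated cells.

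The 3 Slc2a1 probe sets were each higher in TLR4-/-, by 0.48, 0.22 and 0.29 at day 4 and by 0.65, 0.06 and 0.50 in untreated cells. Pgk1 was 0.10 higher at day 4 and 0.41 higher in untreated cells, with values of 9.23 in untreated TLR4-/- and 8.82 in untreated wild type. The Pgk1 difference in untreated cells and the larger Pgk1 response in wild type share the untreated wild-type array and are not separate observations.

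**Figure D4:**
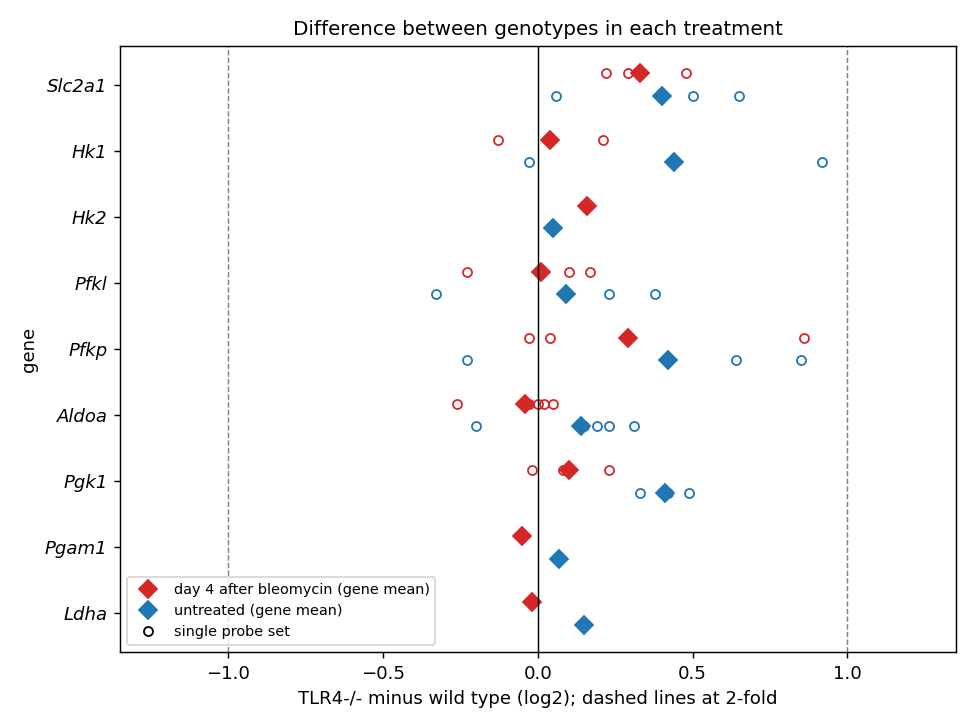
Difference between TLR4-/- and wild type (log2, horizontal axis) for each gene, with day 4 after bleomycin in red above untreated in blue. Diamonds are gene means, open circles single probe sets, and dashed lines mark 2-fold. The gene means lie between -0.05 and 0.44, and in untreated cells all 9 are above 0.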

How the data were processed

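The authors deposited 1 value per probe set and array, read here as log2 signals from their range and close quantiles; their software and normalization are not given in the sources used here. Per the labels' protocols, cDNA from total RNA was amplified and carried a biotin label. Array medians were 6.93 to 6.98. The number of arrays limits the precision.

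Of 45101 probe sets, 64 were array controls, 34945 had 1 symbol, 932 several and 9160 none; 34741 probe sets were named through RefSeq. Probe sets were averaged per gene, and genes with a mean above the median of all genes (7.05) were kept, 9096 of 18193. Limma 3.58.1 (R 4.3.3; lmFit, eBayes) fitted treatment and genotype additively over all these genes, with Benjamini-Hochberg adjustment and 1 residual degree of freedom per gene. A difference between the genotypes' responses thus counts as error, and standard errors rest on it, not on replicates. Differences of single arrays have no test. The fit was tested on simulated data with known changes of at least 2-fold, alike in both genotypes. It found nearly all of the changed genes. Smaller changes were not simulated, so how often the test finds differences as small as those of these genes is unknown. The share of false calls was above the threshold in most runs. The adjusted p-values here may therefore be too small.

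The 10 genes and all lists were chosen with earlier results of these data known. All 10 genes were named; other genes of the pathway were named when called by limma or at 2-fold in a single difference, and a few more (Tpi1, Pgls, Slc16a1, Bsg, Vegfa, Bnip3, Hif1a) after their values were seen. Alternatives were quantile normalization, centring on array medians, the probe set of highest mean, single probe sets, no filter, a filter at the 75th percentile, eBayes with trend and leaving out each array. Leaving out probe sets ending in _x_at was added after seeing the data.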

Additional observations from a re-analysis of the deposited data

Results flagged for a closer look

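With 1 array per group, differences whose sign was opposite in the 2 groups of a contrast are listed here; none of these contrasts was tested. The difference after bleomycin was 0.91 in TLR4-/- and -0.18 in wild type for the Pfkp probe set that was high on the TLR4-/- day 4 array alone, and -0.68 and 0.35 for Pck2. The others were small: -0.06 in TLR4-/- and 0.10 in wild type for 1 of the 3 Slc2a1 probe sets, 0.07 and -0.18 for the Hk1 probe set of small change, and -0.03 and 0.02 for the dimmest Aldoa probe set.

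The TLR4-/- minus wild-type difference was -0.13 at day 4 and 0.92 in untreated cells for the Hk1 probe set that was low in untreated wild type, while the other probe set of the gene gave 0.21 and -0.03. For Pfkp it was -0.03 at day 4 and 0.85 untreated by the brightest probe set, and 0.86 and -0.23 by the one that was high in TLR4-/- day 4. The Pgk1 probe set with the largest wild-type response gave -0.02 at day 4 and 0.49 untreated, and a pair of Aldoa probe sets gave -0.03 and 0.00 at day 4 and 0.31 and 0.15 untreated. The gene means of Aldoa, Pgam1 and Ldha were -0.04, -0.05 and -0.02 at day 4 and 0.14, 0.07 and 0.15 untreated. All are smaller in size than the SD of 0.229 from limma's prior, which rests on the genotypes' differing responses, not on replicates. Of the other named genes, Fbp1 gave 1.12 at day 4 and -0.27 untreated, at dim signals, Pck2 -0.37 and 0.66, Pdk4 0.16 and -0.27, and P4ha1 -0.29 and 0.29. Smaller differences of this kind were -0.04 at day 4 and 0.26 untreated for Tpi1, -0.02 and 0.18 for Bnip3, -0.12 and 0.07 for Vegfa, and -0.11 and 0.06 for Hif1a.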

How the results depend on the processing

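Across normalizations, filters and choices of probe sets, the median difference of the genes ranged from 0.03 to 0.14 after bleomycin in TLR4-/- and from 0.24 to 0.39 in wild type, from 0.01 to 0.16 between genotypes at day 4 and from 0.11 to 0.31 untreated, and from -0.19 to -0.13 for the difference of responses. It kept its sign in these, but the values near 0 moved several-fold. With each probe set on its own, 2 probe sets were at least 2-fold higher after bleomycin in wild type, and 1 was 2-fold up and 1 2-fold down in the difference of responses, against 0 genes each. Limma called 2 of the 9 higher after bleomycin, but 0 when each gene took its brightest probe set and 0 without the filter, and 0 to 3 on leaving out 1 array (3 without untreated TLR4-/-, 0 without any of the other 3; these fits hold 1 factor). Pgk1 ranged from 0.54 to 0.95 over its alternatives (adjusted p = 0.00218 to 0.583) and Pgam1 from 0.60 to 0.70 (0.00302 to 0.437), with the call kept in 6 of 11 each. Hk1, by the probe set of highest mean, differed by -0.18 after bleomycin in wild type in place of 0.45.

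Over all genes, the limma bleomycin calls were 653 higher and 230 lower, against 377 and 106 after centring, 278 and 62 with each gene's brightest probe set and 319 and 48 without the filter. They were 0 and 0 without the TLR4-/- day 4 array and 18 and 3 without the wild-type day 4 array. Without the untreated wild-type array 383 were higher. Genotype calls were 0, against 14 higher and 4 lower with the filter at the 75th percentile and 2 and 1 without _x_at probe sets. The genes at 2-fold after bleomycin ranged from 94 to 455 higher (223) and 43 to 287 lower (81) in TLR4-/-, and from 99 to 443 (232) and 11 to 108 (28) in wild type. Between genotypes they ranged from 1 to 23 (4) and 4 to 27 (5) at day 4, and from 30 to 211 (71) and 12 to 93 (31) untreated, and for the response from 20 to 208 (61) and 26 to 338 (77). These ranges include fits over fewer genes or over single probe sets. No paired analysis was possible because the labels number no replicates that could be paired, beyond the genotype term that the fit already holds. Pgam1, read by 1 probe set, had a limma average of 0.66 in the main fit, with each gene's brightest probe set and without the filter. The degrees of freedom of limma's prior were 11.4, 5.68 and 4.45 in these fits. Beyond the number of genes or arrays in a fit, the cause of the changes in calls and counts was not tested. Without detection calls, the size of changes at dim signals is uncertain.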
